A study of Sus scrofa with 12 samples.

Results

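The cytokine and cytokine-receptor probes outside the IL-1 family and the chemokines were chosen by their printed identifiers: all probes of the array's CY series, leaving out IL1b, IL1a, IL18, IL8, MPIb, MP1a, RANTES, MCP-2 and MCP3. Most of the excluded names carry other identifiers, so this gave 45 of the 48 CY probes, of 188 gene probes on the array. IL1antag, the IL-1 receptor antagonist, remained among them because its name was not on the list of exclusions. The receptor chain IL12Rb2 was printed as 2 probes, CY23 and CY39, so the 45 probes stand for fewer genes. Each was printed as 8 spots on every array.

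RNA came from untreated blood mononuclear cells of Yorkshire boars typed for SLA-DRB1, a polymorphic gene of the major histocompatibility complex whose product displays antigen to helper T cells. There were 2 animals per genotype: allele 050502, allele 070701, and an allele that the labels call New and describe as potentially new. The 6 hybridised pairs, 2 for each pair of genotypes (letters A and B), were each run on 2 arrays with the dyes exchanged, which gave 12 two-colour arrays. No genotype served as a control, and each ratio below is the first-named genotype over the second. Each animal was used in more than 1 hybridisation, but the sources used here do not show which ones, and with 2 pairs per comparison the p-values measure only the spread between these pairs.

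Cytokines are secreted signals that immune cells use to instruct each other through receptors on the cell surface. Blood mononuclear cells are mostly lymphocytes and monocytes, and many cytokine genes are transcribed at low levels in them until the cells are stimulated. Other members of these families, such as receptor chains and lymphotoxin, are carried by resting cells.

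Median spot foreground over the 12 arrays was 382 to 2004 in the red and 498 to 2078.5 in the green channel, over median backgrounds of 96 to 320 and of 113 to 359.5. Of the cell markers, 2 of 6 T-cell probes (TCRa and TCRb), 0 of 3 B-cell probes, the NK-cell probe Granzyme and 1 of 4 monocyte and dendritic-cell probes (CD1a,b,d) were brighter than both negative controls. None of these marker probes passed the ratio test in any genotype pair by limma, while CD1a,b,d, Granzyme and TCRa had unadjusted p-values under 0.05 in at least 1 of them. In RNA from mixed cells, fewer cells of a type and less RNA per cell cannot be told apart.

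The cytokine probes could be seen in nearly every hybridisation. A probe counted as detected in a channel where the median of its spots exceeded local background by more than 2 background SD. By that measure 20 of the 45 were detected on all 12 arrays, and the fewest was 10 arrays. Of all 188 gene probes 113 were detected on all 12, and of the 143 others 93, so the cytokine probes were less often detected throughout. The exceptions were 2 arrays of 050502 vs New: A1, with the lowest median foreground of the 12 arrays (382 red and 498 green), and B1, with median foregrounds of 1129 red and 911 green over high backgrounds of 270 and 264.5. On array A1, 39 of the 45 were detected in the 050502 channel and 12 in the New channel. On array B1 it was 12 in the 050502 channel and 22 in the New channel. The other 20 channels each showed 40 to 45 of them.

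Being above background was a weaker standard than being above DNA with no pig counterpart. The arrays carried 16 spots of VapA, a gene of the bacterium Rhodococcus equi, 16 of the plasmid pACYC177, and 32 of buffer alone. On the log2 scale of the mean of both channels, pACYC177 lay above VapA on 12 of 12 arrays, by 0.80 on average (0.42 to 1.01), and VapA lay above buffer by 1.98. All 45 cytokine probes were brighter than buffer by limma, as were 99.5% of all gene probes. Their differences to buffer ran between 1.20 and 3.93. Against both DNA controls, 3 of the 45 passed (adjusted p under 0.05 for each, over 188 probes), which is 6.67%, while 21.3% of all gene probes and 37 of the 143 others (25.9%) did.

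Those 3 were IFNtp, IL16 and LTb. The name IFNtp is printed without an explanation in the sources used here, and no function is given to it. IL16 is a chemoattractant for CD4+ cells that lymphocytes hold as a precursor. LTb is lymphotoxin beta, the membrane-anchoring chain of lymphotoxin and a member of the TNF family.

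IFNtp lay above pACYC177 on 12 of 12 arrays, with a lowest difference of 0.35, a median of 1.33 and a highest of 1.83. The mean over the 6 hybridised pairs was 1.15 ± 0.43 (SD, n = 6), or 2.22-fold, with an adjusted p of 5.93e-05 by limma. Every array placed this probe above both DNA controls, since its smallest difference to VapA was 1.30. IL16 lay above pACYC177 on 11 of 12 arrays, with a lowest value of -0.0048, a median of 0.96 and a highest of 1.72. IL16 had a mean of 0.88 ± 0.57 (SD, n = 6) and an adjusted p of 0.00167 by limma. LTb lay above it on 10 of 12 arrays, with a lowest value of -0.50, a median of 1.06 and a highest of 2.01. LTb had a mean of 0.85 ± 0.42 (SD, n = 6) and an adjusted p of 3.95e-04 by limma. IL16 and LTb thus reached the level of pACYC177 or fell below it on single arrays, although both stayed above VapA on all 12.

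**Figure D1:**
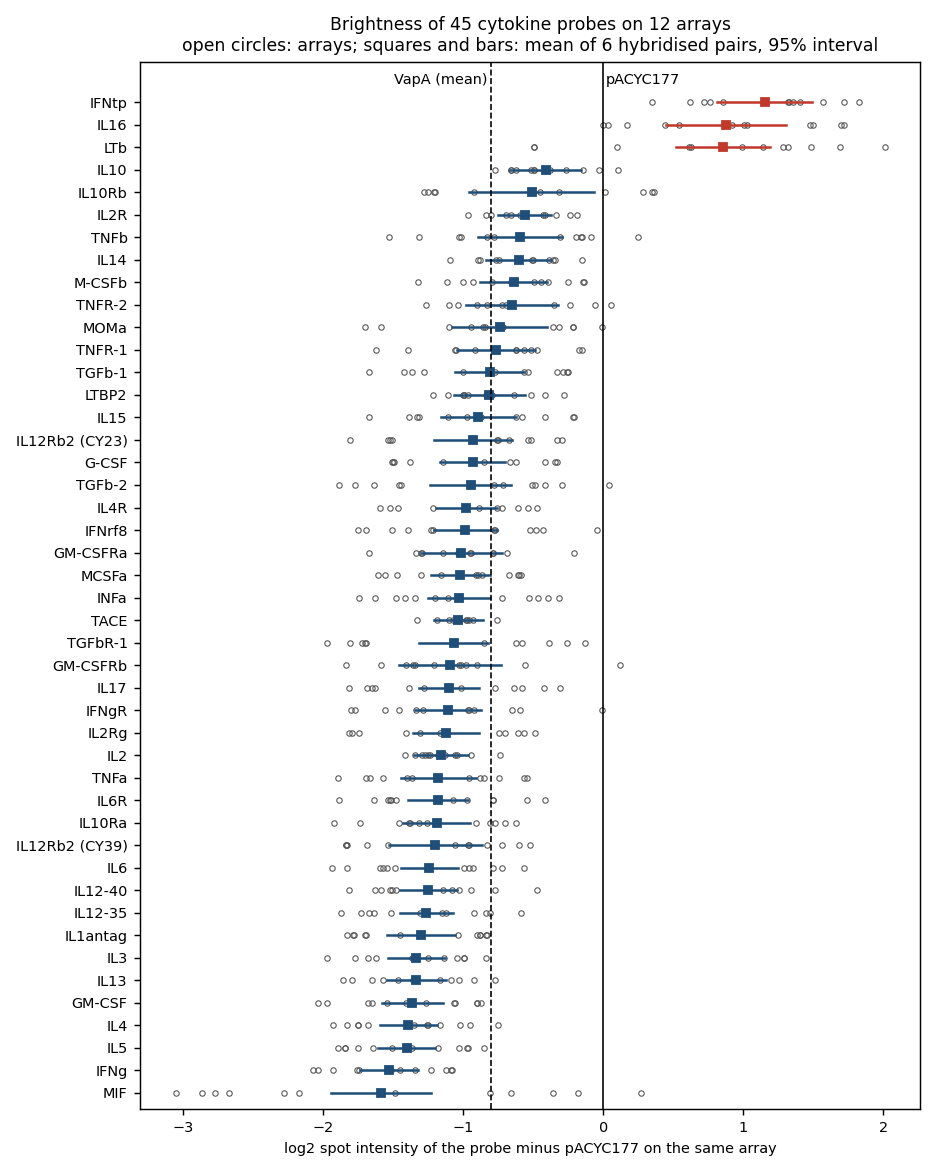
Log2 spot intensity of each of the 45 probes minus that of pACYC177 on the same array. Open circles are the 12 arrays, squares the mean of the 6 hybridised pairs and bars its 95% interval; red marks the 3 probes above both controls (IFNtp 1.15, IL16 0.88, LTb 0.85), and the dashed line is the mean level of VapA, 0.80 below pACYC177.

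Each genotype was read in 8 channels, and the 3 probes were above pACYC177 in most channels of every genotype. For IFNtp the median over channels was 1.42 in 050502, 1.12 in 070701 and 1.14 in New animals, and the lowest of all 24 channels, in New, was 0.19. For IL16 the medians were 1.27 in 050502, 0.87 in 070701 and 0.65 in New, with 6, 8 and 8 of 8 channels above 0. For LTb they were 1.05, 0.84 and 1.23 in that order of genotypes, with 6, 7 and 7 of 8 channels above 0. The channels of the 3 genotypes overlapped for each probe. The 8 channels of a genotype came from 2 animals, lay on a different set of arrays for each genotype and were not normalized for the dyes. These medians therefore do not compare genotypes. Within arrays, the log2 ratio of 050502 over 070701 averaged -0.02 for IFNtp, -0.19 for IL16 and -0.19 for LTb, none passing by limma.

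**Figure D2:**
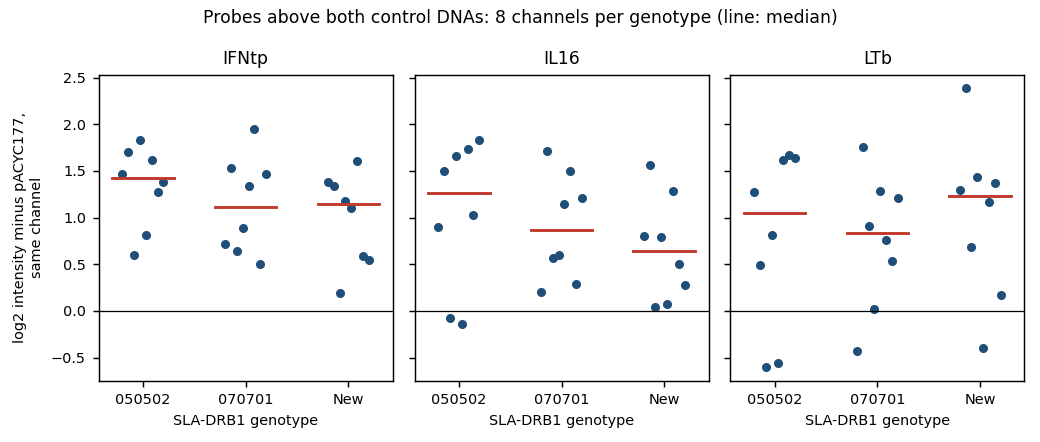
Log2 intensity minus pACYC177 in the same channel for IFNtp, IL16 and LTb, in the 8 channels of each SLA-DRB1 genotype; lines are medians. The genotypes overlap, and the points below 0 are 2 of 050502 for IL16, and 2, 1 and 1 channels of 050502, 070701 and New for LTb.

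The other 42 probes were all dimmer than pACYC177 by limma, against 66% of all gene probes. On no array did 35 of the 45 lie above it, beside 96 of all 188 gene probes. VapA, the dimmer control, split the 45: 4 probes were brighter (background 38.8%), 23 dimmer (background 28.7%) and 18 did not pass. The fourth brighter probe was IL10, the cytokine that restrains macrophage and T-cell responses. IL10 lay 0.39 ± 0.30 above VapA (SD, n = 6, limma adjusted p = 0.0156), on 11 of 12 arrays, and stood at -0.41 against pACYC177, above it on 1 array. Against VapA it passed with the second arrays of the exchanges alone (limma adjusted p = 0.0109) and not with the first alone (limma adjusted p = 0.05001), a split chosen after the values were seen. A further 8 probes had means between the controls without passing against VapA over both arrays: IL10Rb, IL2R, TNFb, IL14, M-CSFb, TNFR-2, MOMa and TNFR-1. Of these, IL2R and IL14 were brighter than VapA by limma with the second arrays alone. IL10Rb, TNFb and M-CSFb were brighter with the first alone.

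Of the 45, 23 were thus dimmer than VapA over both arrays of the exchange. IFNg, a T-cell and NK-cell product which activates macrophages, averaged -0.73 ± 0.11 against VapA (SD, n = 6) and was above it on 0 of 12 arrays. IL4 and IL5, which drive antibody class switching and eosinophil growth, averaged -0.59 ± 0.05 (IL4) and -0.60 ± 0.09 (IL5), also with 0 of 12 arrays above VapA. IL2, IL3 and GM-CSF, further T-cell products, were above VapA on 0 of 12 arrays too, while IL13 was above it on 1 and IL17 on 4. All of these were among the 23 called dimmer than VapA, beside monocyte products such as TNFa (-0.38 against VapA), IL6 (-0.44) and the IL-12 chains IL12-40 (-0.45) and IL12-35 (-0.46). TNFb, another lymphocyte product, had a mean above VapA and is given with its family. With the second arrays of the exchanges alone 29 of the 45 were dimmer than VapA (35.6% of all probes), 22 of them among the 23, and with the first arrays alone 7 were (11.2%). Those 7 were IFNg, IL2, IL3, IL4, IL5, IL13 and TACE, and the calls of the other 16, TNFa, IL6, IL17, GM-CSF and the IL-12 chains included, did not hold on the first arrays.

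Among receptor chains, none was brighter than VapA by limma over both arrays of the exchange, and some means lay above it. IL10Rb, the shared chain of the IL-10 receptor, had a mean 0.29 above VapA (SD 0.61) with 8 of 12 arrays above it, and the IL-2 receptor probe IL2R had 0.24 (SD 0.21) with 10 of 12. Both TNF receptor probes, TNFR-1 (0.04, SD 0.32) and TNFR-2 (0.15, SD 0.42), had means just above VapA with 6 of 12 arrays above it. None of these 4 differences passed by limma over both arrays. With the second arrays alone IL2R was brighter than VapA (0.47, limma adjusted p = 0.00122), and not with the first. With the first arrays alone IL10Rb was brighter (0.51, limma adjusted p = 0.0409), and not with the second. IL10Ra, the ligand-binding chain of the IL-10 receptor, and IL2Rg, the common gamma chain shared by several interleukin receptors, were dimmer by limma over both arrays, at -0.39 (IL10Ra) and -0.32 (IL2Rg) against VapA, and so was the interferon-gamma receptor probe IFNgR, at -0.31. None of these 3 was dimmer with the first arrays alone, where IL2Rg averaged 0.06 ± 0.23 and IFNgR 0.08 ± 0.26 against VapA (SD, n = 6 each).

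In the TGF-beta system, TGFb-1, a suppressor of lymphocyte growth, averaged -0.0090 ± 0.25 against VapA and LTBP2, a matrix protein named for binding latent TGF-beta, -0.012 ± 0.32 (SD, n = 6 each). TGFb-2 averaged -0.14 ± 0.32, and none of the 3 passed over both arrays, whereas the receptor TGFbR-1 stood at -0.26 (adjusted p = 0.0455 by limma). The mean of TGFbR-1 joins opposite directions. It was below VapA on 6 of 6 second arrays (-1.11 to -0.53) and above it on 6 of 6 first arrays (0.03 to 0.68). The means of TGFb-1 and TGFb-2 join opposite calls, in a split chosen after the values were seen. TGFb-1 was dimmer than VapA with the second arrays alone (-0.38, limma adjusted p = 0.0204). With the first alone it was brighter (0.36, limma adjusted p = 0.0138). TGFb-2 was likewise dimmer at -0.65 (limma adjusted p = 0.00117) and brighter at 0.36 (limma adjusted p = 0.0463). Of the growth factor probes, M-CSFb had a mean 0.16 above VapA and 7 others were below it. The TNF probes LTb, TNFb (lymphotoxin alpha) and TNFa are encoded next to each other in the pig's major histocompatibility complex: in the RefSeq gene table of Sscrofa11.1, 0 protein-coding genes stand between LTB or LTA and TNF, and 61 stand between TNF and SLA-DRB1. Only LTb of these neighbours was above both controls, with TNFb 0.21 above VapA (SD 0.33, not passing over both arrays) and TNFa at -0.38 against it.

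How far a probe stood from the control DNA depended on which array of a dye exchange was read, although both arrays of an exchange received the same RNA extracts. This comparison was chosen after the values were seen. On the second array of the exchange, 29 of the 45 probes were dimmer against pACYC177 in 6 of 6 pairs (51.3% of all probes with a value on every array), and 2, IL2R and TACE, were brighter in 6 of 6 (9.63%). The median over the 45 probes was -0.67, second minus first, and -0.47 over all probes. Against VapA, 34 of the 45 were dimmer on the second array in 6 of 6 pairs (52.4% of all) and 2 brighter (10.2%).

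MIF, a constitutively made regulator of macrophages, showed this most plainly. Against pACYC177 its 6 second arrays lay between -3.05 and -2.17, and its 6 first arrays between -1.48 and 0.27, so the groups did not overlap, and the mean over both, -1.59, lay between them. LTb lay between -0.50 and 0.99 on the second and between 1.14 and 2.01 on the first arrays, also without overlap. IL16 had medians of 0.30 on the second and 1.01 on the first arrays, with overlap, and was lower on the second in 6 of 6 pairs. TACE, the protease that releases TNF from the cell surface, went the other way, with -1.02 to -0.75 on the second and -1.33 to -1.05 on the first.

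The control spots moved too: pACYC177 minus buffer was higher on the second array by 0.60 (median of 6 pairs), and VapA minus buffer by 0.59. Against buffer, 7 of the 45 were dimmer on the second array in 6 of 6 pairs (8.56% of all probes) and 9 brighter (38%), and the median over the 45 was -0.00068. MIF (-1.46, median second minus first) and LTb (-0.65) were among the 7, while IL10 (0.55), IL2R (1.01) and IL14 (0.86) were among the 9. With the second arrays alone, LTb was 0.22 ± 0.62 above pACYC177 (SD, n = 6) and did not pass (limma adjusted p = 0.337), against 1.49 ± 0.32 (adjusted p = 1.88e-06) with the first arrays alone. IFNtp and IL16 passed on either. Median spot foreground was higher on the second array of every exchange in both channels. In 050502 vs 070701 pair A it was 1417.5 against 930 in red and 1322 against 1020.5 in green. Dimmer here is thus relative to the control spots. The cause of this difference between arrays was not tested. The genotype ratios below are taken within an array and averaged over both.

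**Figure D3:**
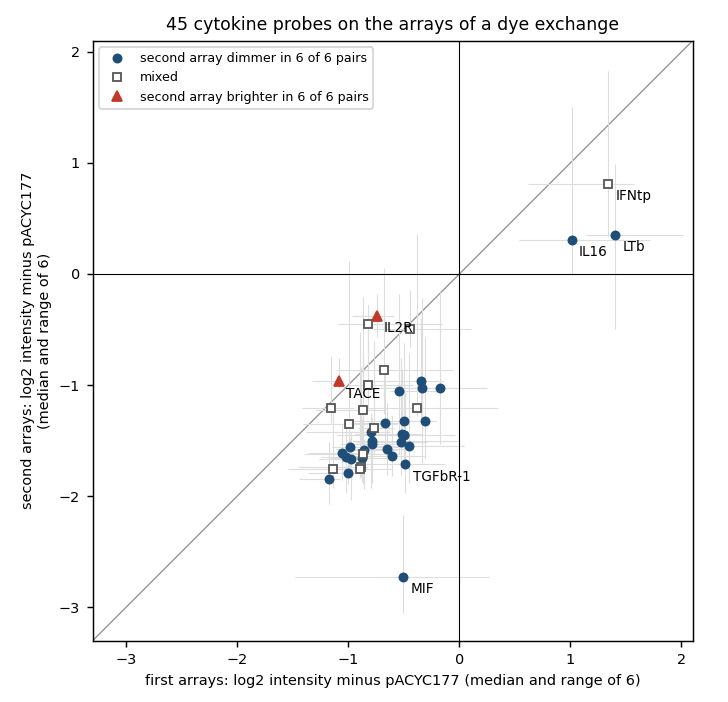
Each of the 45 probes on the second arrays of the dye exchanges (vertical axis) against the first arrays (horizontal axis), as log2 intensity minus pACYC177; points are medians and grey bars ranges of 6 arrays, and the diagonal marks equal values. Most points lie below the diagonal, MIF by the widest margin (-2.72 against -0.51), and IL2R and TACE lie above it.

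The genotype comparisons ask whether the DRB1 allele of the animal goes with a different level of these transcripts. No probe of the 45 passed the adjusted threshold in any comparison by limma: 0 for 050502 vs 070701, where 1.08% of the 185 probes tested passed, 0 for 050502 vs New (0% of all) and 0 for 070701 vs New (1.08%). The lowest adjusted p among the 45 was 0.642, 0.558 and 0.261 in that order. Unadjusted p-values under 0.05 came from 0 probes for 050502 vs 070701 (8.11% of all tested), 6 for 050502 vs New (8.11%) and 1 for 070701 vs New (7.57%). The precision was moderate, with a median 95% interval of 0.21 either side of the log2 ratio. The interval lay within a 2-fold change either way for 42, 43 and 43 of the 45 probes.

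For 050502 vs 070701 the probes were spread around 0, with 19 of 45 above 0 (48.1% of all) and a median log2 ratio of -0.015, beside -0.0043 over all probes tested. The 2 with the widest departures upward belonged to the IL-10 system. IL10 had log2 ratios of 0.66 and 0.22 on the arrays of pair A and 0.80 and 0.36 on those of pair B. All 4 were above 0, with a mean of 0.51 ± 0.10 (SD, n = 2), 1.42-fold, and a limma adjusted p of 0.642. IL10Rb had 0.11 and 0.48 in pair A and 0.67 and 1.04 in pair B, again all above 0, with a mean of 0.57 ± 0.40 (SD, n = 2) and the same adjusted p. IL10Ra, the other receptor chain, stood at -0.06. The monocyte and dendritic-cell probes had 3 of 4 ratios above 0 here (median 0.16). CD1a,b,d stood at 0.40, CD14 at 0.26, CD80 at 0.06 and CD86 at -0.07. Of the other markers, 2 of 3 B-cell probes were above 0 (IgM at 0.52), as was Granzyme (0.35). For T cells it was 1 of 6 probes, with TCRa at -0.61. None of these markers passed, and their part in the IL10 values was not tested.

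Neither IL10 nor IL10Rb passed, and the test depends on the 050502 vs New arrays, since all comparisons share 1 estimate of the spread for each probe. MOMa, whose name is not explained in the sources used here, had -0.21 and -0.21 in pair A and -0.36 and -1.26 in pair B, all below 0, with a mean of -0.51 ± 0.43 (SD, n = 2, limma adjusted p = 0.741). Array B2 alone held its widest ratio. All 4 arrays went one way for 9 of the 45 probes (29.2% of all), 6 of them above 0 (17.3%) and 3 below (11.9%). Of the smallest unadjusted p-values, M-CSFb, named for the macrophage growth factor, had a mean of 0.16 ± 0.13 with 3 of 4 arrays above 0, and GM-CSF, which supports granulocytes and dendritic cells, -0.13 ± 0.01 with 3 of 4 arrays below 0 (SD, n = 2 each). The GM-CSF value was 0.0086 with the first arrays of the exchanges alone. Among the 3 probes above both controls, LTb averaged -0.19 ± 0.09 and was above 0 on 0 of 4 arrays (limma adjusted p = 0.668). IL16 averaged -0.19 ± 0.20, above 0 on 1 of 4 arrays (limma adjusted p = 0.70). IFNtp averaged -0.02 ± 0.17, above 0 on 2 of 4 arrays (SD, n = 2 each, limma adjusted p = 0.962).

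For 070701 vs New, M-CSFb had the smallest p of the 45. Its ratios were -0.36 and -0.24 in pair A and -0.22 and -0.34 in pair B, all below 0, with a mean of -0.29 ± 0.01 (SD, n = 2), 1.22-fold lower in 070701. The unadjusted p was 0.00986 (5.95% of all probes were lower at p under 0.05) and the limma adjusted p 0.261, so it did not pass. IL16 had 0.10 and 0.21 in pair A and 0.53 and 0.38 in pair B, with a mean of 0.31 ± 0.21 (SD, n = 2, limma adjusted p = 0.80). IFNtp had 0.10, 0.26, 0.37 and 0.37, with a mean of 0.28 ± 0.13 (SD, n = 2, limma adjusted p = 0.881). Both probes above the controls were thus higher in 070701 on 4 of 4 arrays without passing.

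LTb, the other probe above both controls, was lower in 070701 on 4 of 4 arrays, at -0.31, -0.17, -0.15 and -0.05, with a mean of -0.17 ± 0.10 (SD, n = 2, limma adjusted p = 0.881). The B-cell probes IgM, IgJ and CD72 had 0 of 3 ratios above 0 beside it (median -0.26), none passing, and their part was not tested. TGFb-2 was lower on 4 of 4 arrays as well, at -0.43, -0.13, -0.68 and -0.53, with a mean of -0.44 ± 0.23 (limma adjusted p = 0.881), and so was MOMa, with a mean of -0.43 ± 0.30 (SD, n = 2 each). IL2R and IL2, receptor and ligand of T-cell growth, had means of 0.11 ± 0.05 and 0.19 ± 0.02 (SD, n = 2 each) with 4 of 4 arrays above 0, neither passing. Of the T-cell probes 4 of 6 were above 0 beside them (median 0.01), with TCRa at 0.50 and TCRb at -0.16, while Granzyme stood at -0.28 and CD1a,b,d at -0.47. None of these passed, and their part was not tested. All 4 arrays went one way for 13 of the 45 (29.7% of all), 5 above 0 (15.1%) and 8 below (14.6%). Over the 45 the count above 0 was 21 (53% of all) and the median -0.017, beside 0.0065 over all probes.

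For 050502 vs New the direction of the ratios is not settled by the data. Over all 185 probes the ratios of pair A and pair B had a Pearson correlation across probes of -0.54, while it was 0.60 for 050502 vs 070701 and 0.64 for 070701 vs New. Nothing in the labels of the 4 arrays settles it, so values are given as labelled and also with pair A turned. Across the 45 probes the correlation between pairs was -0.25 for 050502 vs New, 0.52 for 050502 vs 070701 and 0.63 for 070701 vs New. The arrays of pair A had the 45 ratios correlating at -0.30 across the dye exchange, against 0.30 to 0.71 in the 5 other pairs. Over all 185 probes the correlation across the exchange was 0.19 in that pair, against 0.66 to 0.85 in the 5 others. Probes are not independent replicates, and those on an array share its spots, scan and normalization.

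**Figure D4:**
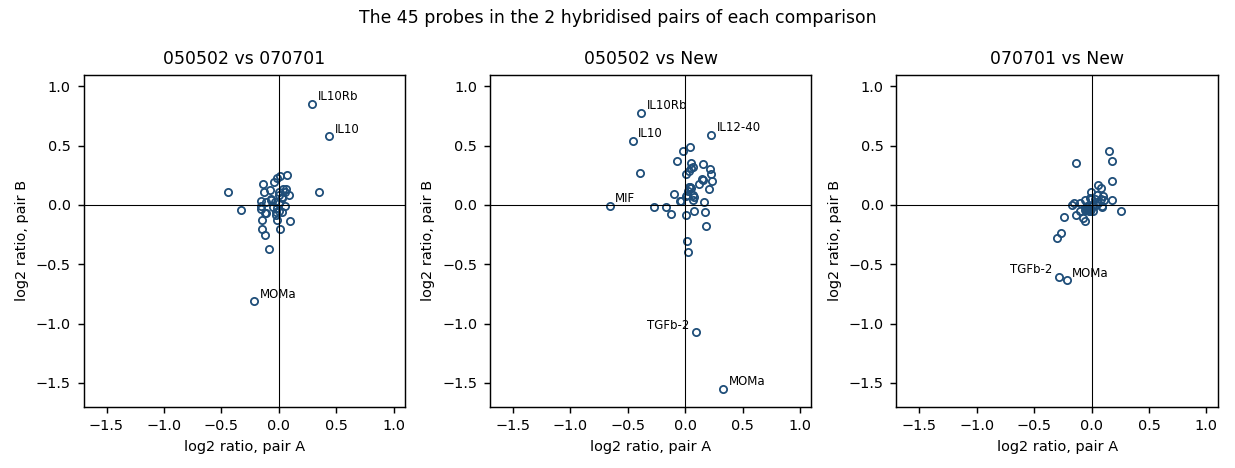
Log2 ratio of each of the 45 probes in hybridised pair B against pair A, for each genotype comparison. IL10, IL10Rb and MOMa share a sign in both pairs of 050502 vs 070701, as do TGFb-2 and MOMa in 070701 vs New, while IL4R has opposite signs in both comparisons; in 050502 vs New, IL10, IL10Rb, TGFb-2 and MOMa have opposite signs.

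As labelled, 33 of the 45 probes had 050502 vs New ratios above 0, beside 51.4% of all probes tested, with a median of 0.08 beside 0.0019 over all. With pair A turned, a setting chosen with the opposition of the pairs known, 32 were above 0 and the median was 0.04. Over all 185 probes tested, 100 were above 0 in that setting, with a median of 0.02. Among the probes dimmer than pACYC177 the split was 32 of 42 for the cytokine probes (median 0.08) and 39 of 79 for the others (median -0.00064). Without arrays A1 and B1, where detection was lowest, a setting chosen after seeing the data, 29 of the 45 were above 0, with a median of 0.07. The share over all probes was not counted without these arrays. All 4 arrays went one way for 3 of the 45 (9.19% of all), 3 above 0 (4.32%) and 0 below (4.86%). No member passed, and these counts carry no test.

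The 6 with unadjusted p-values under 0.05 all had higher values in 050502, where 5.41% of all probes did. IFNg had ratios of 0.13, 0.32, 0.30 and 0.23 on arrays A1, A2, B1 and B2, all above 0, with a mean of 0.24 ± 0.03 (SD, n = 2) and a limma adjusted p of 0.558. IL12-40 had 0.52, -0.07, 0.42 and 0.77, with a mean of 0.41 ± 0.26, and IL12-35 had 0.49, -0.20, -0.17 and 0.60, with a mean of 0.18 ± 0.05 (SD, n = 2 each, limma adjusted p = 0.558 for both). IL12-40 and IL12-35 are the chains that pair to form IL-12, the monocyte and dendritic-cell signal for IFNg production, and each changed sign between arrays.

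IL10Ra had 0.22, 0.21, -0.10 and 0.71, with a mean of 0.26 ± 0.07, IL17, a neutrophil-recruiting T-cell cytokine, had a mean of 0.17 ± 0.05, and the IL-12 receptor probe IL12Rb2 (CY23) 0.25 ± 0.13 (SD, n = 2 each, limma adjusted p = 0.558). All 6 were dimmer than pACYC177. The second IL12Rb2 probe, CY39, was not among the 6, with a mean of 0.16 ± 0.18 (SD, n = 2, limma unadjusted p = 0.175), or 0.12 with pair A turned. In the New channel IL12-40, IL12-35 and IL10Ra were detected on 1 of the 4 arrays, and IFNg on 2, while each was detected in the 050502 channel on 3. The part of this weak signal in the ratios was not tested. With pair A turned, the means were 0.02 for IFNg, 0.18 for IL12-40, 0.05 for IL10Ra, 0.04 for IL12-35, 0.09 for IL12Rb2 (CY23) and -0.04 for IL17.

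The loop of genotypes allows each 050502 vs New ratio to be set beside the sum of the 2 other comparisons, which share animals with it. For IFNg the sum was -0.06 where 0.24 was measured, for IL12-40 it was -0.11 where 0.41 was measured, and for IL10Ra 0.002 where 0.26 was measured. The ratios of these probes in the comparisons with 070701 were thus near 0: IFNg had -0.02 for 050502 vs 070701 and -0.04 for 070701 vs New, and IL12-40 had -0.08 and -0.03 for the same comparisons.

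For IL10 the pairs opposed each other. Its 050502 vs New ratios were -0.96 and 0.04 in pair A and 0.68 and 0.40 in pair B, with a mean of 0.04 ± 0.71 (SD, n = 2). The sum around the loop was 0.53, where pair A gave -0.46 and pair B 0.54. With pair A turned, the mean was 0.50, 1.41-fold. Turning a pair because it opposes the other brings the pairs together by construction, so what passes in that setting is given as a description only. IL10 passed there for 050502 vs New (limma adjusted p = 0.0444, where 2.16% of all probes passed) and for 050502 vs 070701 (limma adjusted p = 0.0302, where 2.16% passed), where the ratio stayed the same and the spread it is tested against became smaller. IL10 was the 1 of 45 to pass in this setting, near the share of all probes, and its 070701 vs New ratio stood at 0.02. IL10Rb behaved alike, with -0.11, -0.66, 0.59 and 0.96, a mean of 0.20 ± 0.82 (SD, n = 2) and a loop sum of 0.55, but did not pass with pair A turned (adjusted p = 0.209).

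MOMa and TGFb-2 had ratios for 050502 vs New that opposed each other between pairs. MOMa had 0.17 and 0.49 in pair A and -1.25 and -1.86 in pair B, with a mean of -0.61 ± 1.33 (SD, n = 2), past 1.5-fold, and was the 1 probe of the 45 past that size in any comparison. TGFb-2 had 0.26, -0.07, -1.17 and -0.98, with a mean of -0.49 ± 0.83. MIF had -1.27, -0.04, 0.20 and -0.21 with 1 of 4 arrays detected in the 050502 channel. Of the probes above both controls, IFNtp averaged -0.06 ± 0.47, IL16 0.22 ± 0.34 and LTb -0.18 ± 0.30 (SD, n = 2 each), none with both pairs on the same side of 0. With pair A turned they averaged 0.33 (IFNtp), 0.24 (IL16) and -0.21 (LTb).

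**Figure D5:**
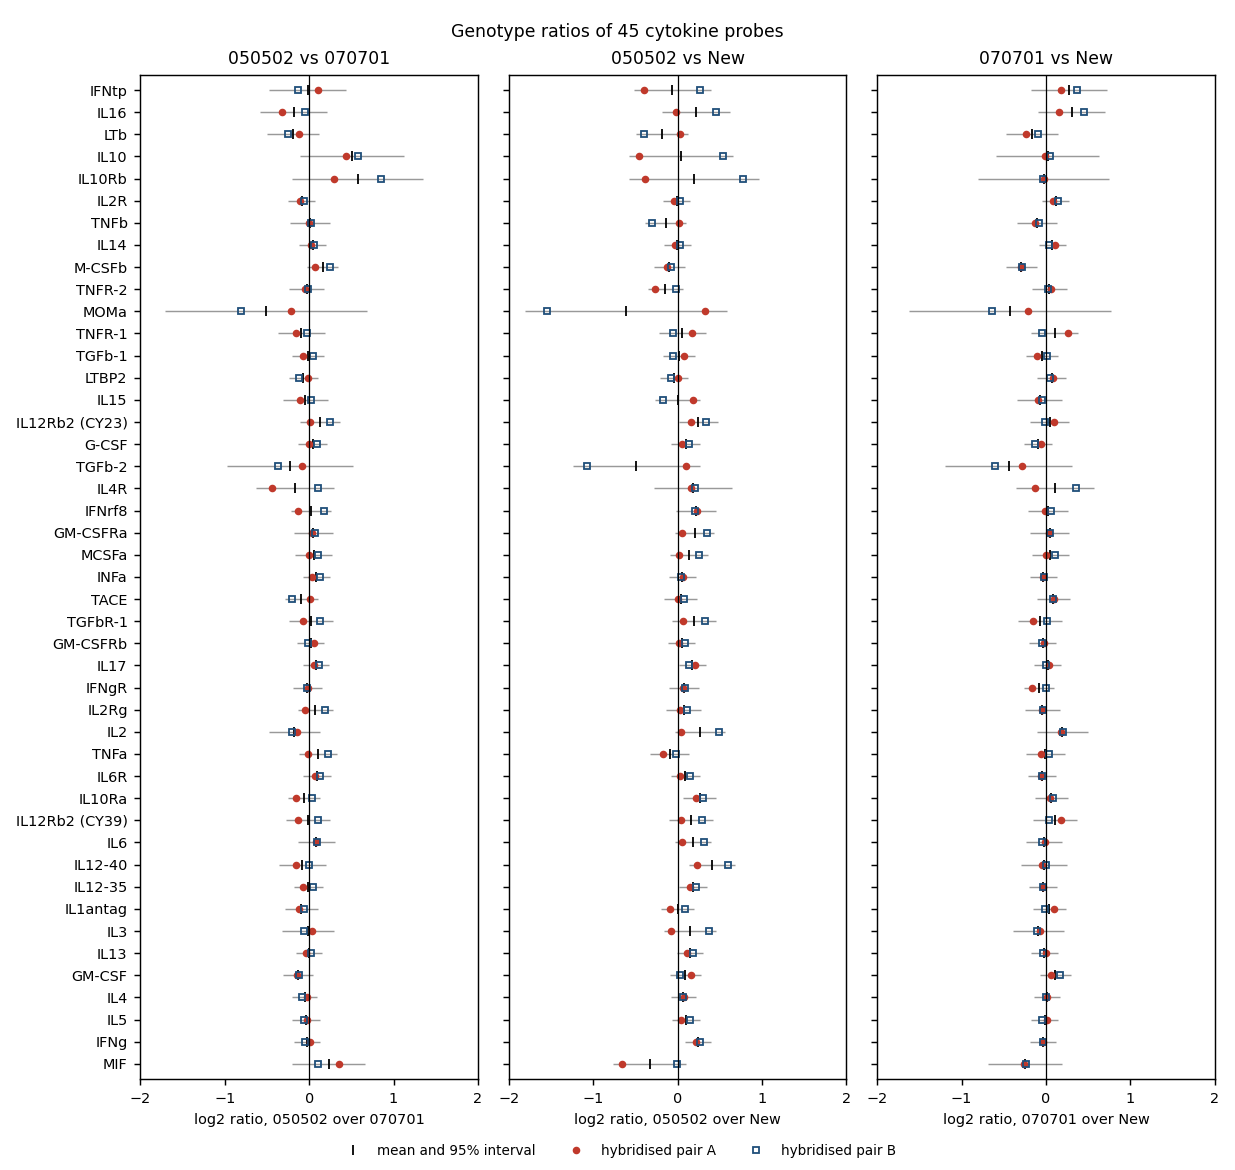
Log2 ratios of the 45 probes for the 3 genotype comparisons, with hybridised pair A (filled red circles), pair B (open blue squares), the mean (black ticks) and its 95% interval (grey). Most intervals span 0; those of IFNg, IL12-40, IL10Ra, IL17, IL12-35 and IL12Rb2 (CY23) in 050502 vs New and of M-CSFb in 070701 vs New do not, and no adjusted p passed.

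By family, none of the groups held a passing probe in any comparison. Over all probes tested 48.1%, 51.4% and 53% of ratios were above 0 for 050502 vs 070701, 050502 vs New and 070701 vs New. The 6 IL-6 and IL-12 family probes were all above 0 for 050502 vs New (median 0.18, or 0.11 with pair A turned), beside 3 of 6 for 050502 vs 070701 (median 0.04) and 2 of 6 for 070701 vs New (median -0.03). The 7 IL-2 and IL-4 family probes had 1 ratio above 0 in 050502 vs 070701, 6 in 050502 vs New and 4 in 070701 vs New. Of the 8 growth factor and receptor probes, 5, 7 and 3 were above 0 in the same order. The TNF group of 6, made of ligands, receptors and the protease TACE, had 2, 2 and 3 above 0. The TGF-beta group of 4, LTBP2 included, had 1, 2 and 1. The interferon group of 5 had 2, 4 and 2. It held IFNg, INFa, the receptor probe IFNgR, IFNrf8 and IFNtp, and IFNtp was placed there by its name alone. With pair A turned the counts for 050502 vs New were 6 for the IL-6 and IL-12, 5 for the IL-2 and IL-4, 7 for the growth factor, 3 for the TNF, 1 for the TGF-beta and 3 for the interferon group. TNFa, encoded in the MHC, averaged 0.11 in 050502 over 070701, -0.09 in 050502 over New (0.08 with pair A turned) and -0.0079 in 070701 over New. Its neighbour TNFb averaged 0.0091, -0.14 (-0.16 turned) and -0.11 in the same order, and none passed.

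The genes that relay cytokine signals were listed from the array's names: JAK, STAT, NFAT and NF-kappaB family members with IRF1, T-bet and GATA3. Of these 17 probes, 2 were brighter than both controls (STAT4, and 1 of the probes named NFKB1), beside 21.3% of all gene probes. None passed in any genotype comparison by limma. Unadjusted p-values under 0.05 came from 1 in each comparison, beside 8.11%, 8.11% and 7.57% of all tested. They were the NFKB1 probe above both controls for 050502 vs 070701 (0.20), and NFAT1 for 050502 vs New (-0.19, or 0.02 with pair A turned) and 070701 vs New (-0.20). The other NFKB1 probe stood at 0.14 for 050502 vs 070701 (limma unadjusted p = 0.153).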

How the data were processed

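The deposited spot intensity values are GenePix medians: GenePix Pro 6.0.1.25 made them from scans at 635 and 532 nm (4000B scanner), per the file headers, without normalization. The deposited percent of saturated pixels per spot reached 14 percent in a cytokine spot. The authors' deposited log2 ratios equalled the log2 ratio of background-subtracted medians within 0.001, red over green, with column medians from -0.69 to 0.60, so they are neither centred nor turned for the dyes. Channel 1 carried Alexa Fluor 647 and channel 2 Alexa Fluor 555, per the labels' protocols, and RNA was amplified in 1 round.

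Medians were background-corrected with normexp (offset 50) and normalized by global loess in limma 3.58.1 (R 4.3.3). Control spots and spots not found had weight 0. Spots of a probe were averaged, and so were both arrays of a dye exchange, giving 6 values. A probe was tested if either channel detected it on 6 or more of 12 arrays, which kept 185 of 188 and all 45 cytokine probes. Ratios were fitted with 1 coefficient per genotype pair (3 residual and 1.85 prior degrees of freedom). Brightness was the mean log2 intensity of both channels minus VapA or pACYC177 on the same array, fitted with 1 mean per probe over 188 probes. All tests were two-sided with Benjamini-Hochberg adjustment. The number of arrays limits the precision.

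Members, lists and tests were chosen with earlier results of these data known. Values are given for probes above both controls, those passing a ratio test, the 4 of smallest p in each comparison, and those with 4 arrays one way and a log2 ratio of at least 0.25 in size; any other probe named was picked with its values in view. The names of 35 probes were matched to the RefSeq table. The fits were also run on simulated data with independent pairs. That simulation held no shared animals, no difference between the 2 control DNAs and none between the arrays of an exchange, so it does not cover these.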

Additional observations from a re-analysis of the deposited data

Results flagged for a closer look

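For each of the 45 probes the differences to VapA and to pACYC177 in the 6 hybridised pairs were checked for a single pair far from the rest, and 6 of 90 sets had one. Chance gives about 1 in 20 such sets. GM-CSF stood at -0.997 against VapA in 050502 vs New pair A, where the other pairs lay between -0.54 and -0.40. Against pACYC177 in 050502 vs New pair B, GM-CSFRb stood at -0.22 (others -1.62 to -1.12), IL2 at -0.90 (others -1.27 to -1.14) and TNFR-1 at -0.17 (others -1.07 to -0.77). IL14 stood at 0.72 against VapA in 050502 vs 070701 pair B (others -0.03 to 0.24), and TACE at -1.14 against pACYC177 in 070701 vs New pair A (others -1.03 to -0.97). Of the 6, 4 lie in 050502 vs New, which holds the 2 arrays on which the fewest cytokine probes were detected, and their part was not tested.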

How the results depend on the processing

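The count of 3 probes above both controls was 3 with no background correction, in either channel alone, with the median of the control spots, by means without a test, and from 3 to 3 with each hybridised pair left out. Alternatives chosen after seeing the data gave 3 without the 2 arrays of lowest detection, 3 with the first and 2 with the second arrays of the dye exchanges, and 45 with spots of buffer alone as the control. The count of passing ratios was 0 in each comparison with no background correction, arrays centred on their medians, loess within print blocks, the deposited log ratios, either array of the exchange, no filter, detection on all 12 arrays, probes above both controls only, scan date as a random block over the 12 single arrays, and with each pair left out (0 to 0). With 050502 vs New replicate A turned, a setting chosen with the opposition of its pairs known, it was 1 for 050502 vs 070701 and 1 for 050502 vs New, IL10 each time: turning the pair narrows its spread and moves its 050502 vs New mean to 0.50. With the replicate block it was 0 in each comparison (lowest adjusted p 0.332, 0.343 and 0.193). Deviations of same-letter pairs correlated at 0.53, 0.62 and 0.43 over probes, but with 2 letters per comparison the letters do not establish a pairing. No scan date but 1 held 2 comparisons, so date and comparison cannot be told apart elsewhere. The median ratio of the probes ran from -0.19 to 0.04 for 050502 vs 070701, -0.06 to 0.14 for 050502 vs New and -0.04 to 0.28 for 070701 vs New, reaching -0.19, -0.06 and 0.28 with the 3 probes above both controls alone. Without 050502 vs New pair B, LTb stood at 0.02 and IL16 at -0.02 for that comparison, and without its pair A, IFNtp at 0.27. Without 050502 vs 070701 pair B, IFNtp stood at 0.10 there, and GM-CSF stood at 0.0086 there with the first arrays alone. IL17 stood at -0.06 for 050502 vs New with the second arrays alone.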
